A study of Mus musculus with 6 samples.

Results

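The 77 genes described here carry symbols of mouse mitochondrial ribosomal proteins, with Mrps36, now placed in another complex, kept unless stated. They were taken from the authors' deposited table of 19571 genes as every symbol that starts with Mrpl (large subunit) or Mrps (small subunit) followed by a digit, leaving out 2 pseudogene symbols. By symbol, 48 belonged to the large subunit and 29 to the small subunit. The study compared E14 mouse embryonic stem cells in which Dot1l was knocked out by CRISPR/Cas9 editing (labelled Dot1L-/-, 3 libraries) with wild-type E14 cells (3 libraries). E14 is an established embryonic stem cell line, and Dot1l encodes the enzyme that methylates lysine 79 of histone H3 on transcribed genes. Both groups grew on gelatin in medium with serum and LIF and carried the age label day 14. The labels speak of knockout cell lines but do not say how many clones there were or whether the replicates of a group were separate cultures, so the p-values reflect only the variation among these libraries, which could be technical.

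Mitochondria keep their own ribosome, which translates the few proteins encoded by mitochondrial DNA, all of them core subunits of the respiratory chain and the ATP synthase. Its RNA comes from the mitochondrial genome, but all of its proteins are encoded in the nucleus, made in the cytosol and imported. Some descend from the ribosome of the bacterial ancestor and others are found only in mitochondria. The large subunit joins amino acids at the peptidyl transferase centre and passes the chain out through the exit tunnel, and the small subunit reads the messenger RNA.

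The values analysed here are 1 row per gene for the comparison of the 2 genotypes: a mean normalized read count across the 6 libraries, a log2 fold change, the standard error (SE) of that change, and the DESeq2 p-value before and after adjustment for multiple testing. They are not given per library, so the spread over samples is seen only through the SE, and the depth of each library is unknown. The sign of the fold change is not stated with the values. Positive was read here as higher in Dot1l knockout cells, because genes of the 2-cell-like state, which published work describes as held down by Dot1l, had large positive values. Their own direction is therefore not a result, and with the opposite sign every direction below would reverse. Levels in each genotype, called implied levels, were worked out from the mean and the fold change on the assumption of equal groups, and carry no error. These are bulk samples, so fewer cells that express a gene and less RNA per cell cannot be told apart.

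Among all genes tested, 6.58% had an adjusted p under 0.05. Dot1l itself (chromosome 10, 80755206 to 80795461, mm10) had a mean of 5761 and a log2 fold change of -0.16 ± 0.25 (SE; DESeq2 adjusted p = 0.845) in the authors' deposited table, with a 95% interval of -0.66 to 0.33. Reads over the whole gene do not check the knockout where an edit leaves the transcript in place, and the sources used here do not give the edited position. Of 8 embryonic stem cell markers, 0 passed the test. By contrast 5 of 9 fibroblast markers, 6 of 8 primitive endoderm markers and 7 of 9 2-cell-like markers passed as higher in knockout cells, and 0 passed as lower. The direction of the 2-cell-like markers was fixed by the reading of the sign above. Pdgfra is counted in both the fibroblast and the primitive endoderm markers. The summed implied level of the fibroblast markers was 49176 in wild-type and 35510 in knockout cells, that of the primitive endoderm markers 3413 and 6954, and that of the 2-cell-like markers 29.9 and 1984. The fibroblast sum was set mostly by Fn1 (mean count 32973, log2 fold change -0.55) and Vim (7641, -0.48). With Acta2 they were the 3 fibroblast markers below 0, whereas the 5 that passed had mean counts from 16.1 to 734. The part of these other cell states in the values below was not tested.

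All 77 members were protein-coding genes at 1 locus each, spread over 17 chromosomes, with 11 of them on chromosome 11. All were well detected, so none depended on a filter on low values. Mean normalized counts ran from 341 for Mrps18c to 6621 for Mrpl15, with a median of 2126. Together they held 0.482% of the summed means of the table. Per kilobase of their principal transcript, mean levels ran from 170 for Mrpl19 to 6715 for Mrpl42, both proteins of the large subunit. Mrpl52, at 6193, and Mrpl34, at 4822, followed Mrpl42. The counts are per gene, so this order depends on the length chosen. The principal transcript of Mrpl42 has 666 bases but the exons of all its transcripts cover 3682. For Mrpl52 these lengths are 418 and 1109, and for Mrpl34 both are 607. In the small subunit the mean level per kilobase ran from 353 for Mrps25 to 2800 for Mrps12. The medians were 1508 for large-subunit and 1232 for small-subunit genes. Most of these proteins are present in equal numbers in the particle, whereas their mRNA levels per kilobase of principal transcript spanned a wide range.

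**Figure D1:**
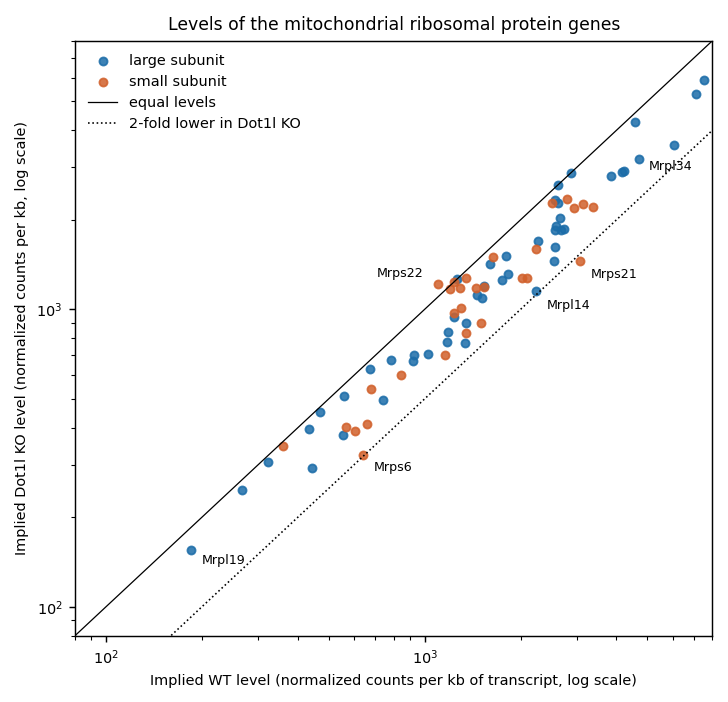
Implied level of each member in wild-type cells (horizontal axis) and Dot1l knockout cells (vertical axis), in normalized counts per kilobase of principal transcript, both on log scales. Each point is 1 gene, without error bars because levels are not given per library: nearly all lie between the line of equal levels and the dotted line of a 2-fold lower level.

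No mitochondrial ribosomal protein gene passed the test between genotypes. At an adjusted p under 0.05 (DESeq2), 0 of 77 were lower in knockout cells, against 1.25% of all genes tested, and 0 of 77 were higher, against 5.34%. At an unadjusted p under 0.05, 2 were lower (Mrps21 and Mrpl14) and 0 higher, against 5.55% and 10.6% of all genes. Among the 8235 tested genes whose mean count lay within the members' range, 9.18% were lower and 2.87% higher at that unadjusted threshold, and 2.04% were lower at the adjusted one. At the adjusted threshold 113 of these 8235 genes were higher, a smaller share than among all genes. The members' shares are thus not above the background at either threshold.

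The fold changes nevertheless leaned to one side. The log2 fold change was below 0 in 74 of 77 members in the authors' deposited table, against 51.4% of all genes and 67.5% of genes in the same range of mean count. Their median was -0.43, with quartiles of -0.55 and -0.17 and a full range of -1.08 to 0.14. The median was -0.02 over all genes and -0.17 over genes in the same range of mean count. The median corresponds to a difference in level of -25.8% in knockout cells. The summed implied level of all members was 196718 in wild-type and 150979 in knockout cells, a difference of -23.3%. Members are measured in the same 6 libraries and are not independent of each other, so this lean carries no test of its own.

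The errors set what could be seen in a single gene. The median SE of a member was 0.40, about as large as the median fold change itself. The 95% interval excluded a 2-fold rise in all 77 members. It excluded a 2-fold fall in 23 and included one in the other 54. For 69 of 77 members the SE lay above the median SE of genes with a like mean count, which was 0.31 at the members' median. A fall of the median size was therefore not detectable gene by gene in these 6 libraries. High errors were not particular to the members: 81 of 84 cytosolic ribosomal protein genes also lay above the median SE for their mean count. Genes with transcripts under 1000 bases in the members' range had a median SE of 0.39, and members of that length 0.43. Spearman's rho between log2 fold change and SE was -0.54 over the members and -0.07 over genes in the range, a description without a test.

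**Figure D2:**
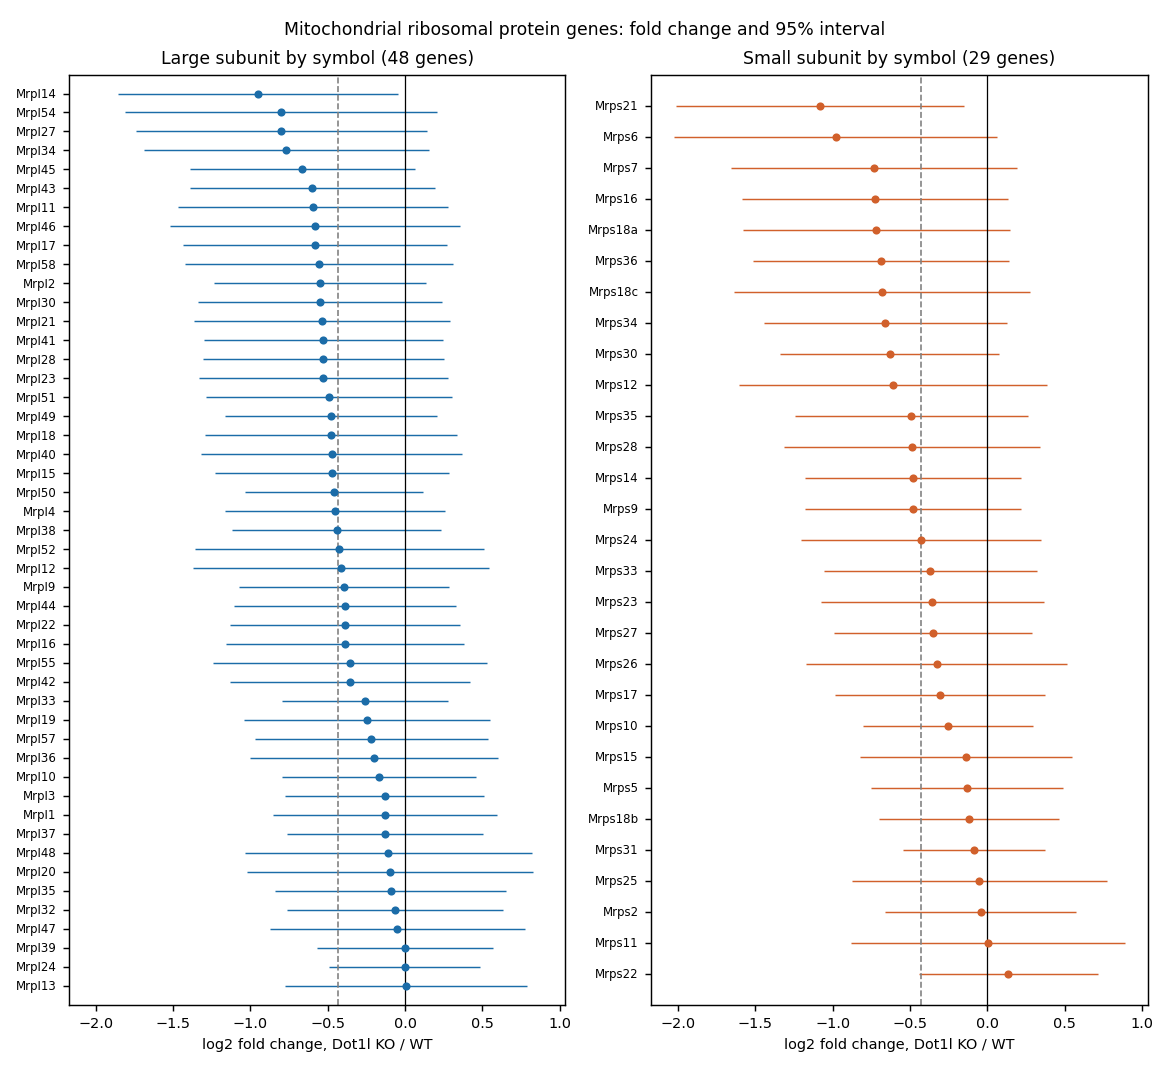
Log2 fold change (Dot1l knockout over wild type, horizontal axis) of each of the 48 large-subunit and 29 small-subunit genes, with 95% intervals from the deposited SE. The dashed line is the median of each subunit, -0.43 in both, and the intervals of all but Mrps21 and Mrpl14 cross 0.

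**Figure D3:**
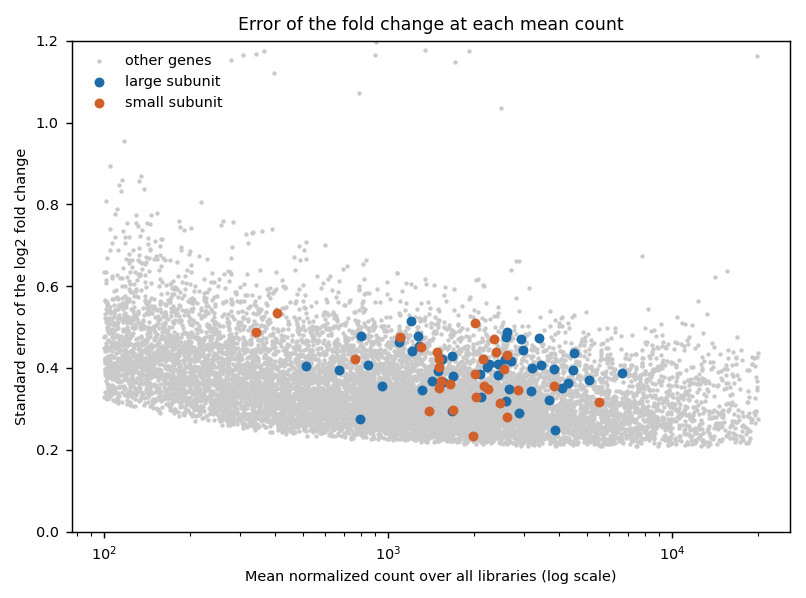
Standard error of the log2 fold change (vertical axis) against the mean normalized count (horizontal axis, log scale) for the members in colour and other genes in grey. The grey points cover a wider range of mean count than the members. Of the 77 members, 69 lie above the median error of genes of like mean count.

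The 2 members with the smallest p-values both have bacterial counterparts. Mrps21, the mitochondrial form of bacterial ribosomal protein S21 (chromosome 3, 95862634 to 95871519), had a mean count of 1103 and implied levels of 1497 in wild-type and 708 in knockout cells. Its log2 fold change in the authors' deposited table was -1.08 ± 0.48 (SE; 95% interval -2.01 to -0.15; unadjusted p = 0.0231; DESeq2 adjusted p = 0.190), the lowest value of any member. Mrpl14, the mitochondrial form of bacterial L14 on the face where the subunits meet (chromosome 17, 45686322 to 45698495), had a mean count of 1091 and implied levels of 1438 and 744.5. Its fold change was -0.95 ± 0.46 (SE; 95% interval -1.86 to -0.04; unadjusted p = 0.0402; DESeq2 adjusted p = 0.272) in the authors' deposited table. Both intervals exclude 0 before adjustment, and neither gene passed after it.

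At the other end stood Mrps22, a mitochondrion-specific protein of the small subunit (chromosome 9, 98588730 to 98601660), with implied levels of 1321 in wild-type and 1452 in knockout cells. In the authors' deposited table it had the highest fold change of any member, 0.14 ± 0.29 (SE; DESeq2 adjusted p = 0.896). Mrps11 (chromosome 7, 78783119 to 78792989), the mitochondrial form of bacterial S11, had implied levels of 1302 and 1307. Its log2 fold change there was below 0.01 in size, with an SE of 0.45. Mrpl13, the mitochondrial form of bacterial L13, was the only other member not below 0, with implied levels of 3195 and 3215. The 95% intervals of all 3 genes include the median of the members.

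The promoters of Mrps21 and Mrpl14, the members of smallest p, and of Mrps22 and Mrps11, of the 3 members not below 0, are shown so that both ends of the range can be compared. Each line gives the 250 bases before the annotated start, 5′ to 3′ on the gene's strand, from RefSeq on GRCm38.p6. Capitals mark a match, on either strand, to a motif of a factor known for control of nuclear genes for mitochondrial proteins or of ribosomal genes: NRF1 (GCGC, any base, then TGCGC), the ETS family, which includes GABPA (CCGGAAG), or YY1 (AA, any base, then ATGGCGG). Mrps21 lies at chr3:95871515-95871764 on the minus strand, Mrpl14 at chr17:45686099-45686348 on the plus strand, Mrps22 at chr9:98601680-98601929 on the minus strand and Mrps11 at chr7:78782881-78783130 on the plus strand.
Mrps21: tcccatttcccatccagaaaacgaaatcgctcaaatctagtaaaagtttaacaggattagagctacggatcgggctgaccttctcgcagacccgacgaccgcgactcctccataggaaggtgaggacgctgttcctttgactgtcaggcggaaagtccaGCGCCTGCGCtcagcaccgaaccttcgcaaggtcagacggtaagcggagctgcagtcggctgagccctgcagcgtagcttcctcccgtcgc
Mrpl14: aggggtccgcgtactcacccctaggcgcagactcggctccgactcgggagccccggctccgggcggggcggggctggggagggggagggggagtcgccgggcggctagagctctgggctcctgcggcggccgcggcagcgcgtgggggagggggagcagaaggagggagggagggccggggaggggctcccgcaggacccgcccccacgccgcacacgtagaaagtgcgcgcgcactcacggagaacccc
Mrps22: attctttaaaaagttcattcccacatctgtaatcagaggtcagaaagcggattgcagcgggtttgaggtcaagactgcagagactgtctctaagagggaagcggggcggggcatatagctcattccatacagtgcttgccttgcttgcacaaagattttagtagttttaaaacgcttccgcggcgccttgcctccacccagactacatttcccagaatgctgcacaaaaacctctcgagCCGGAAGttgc
Mrps11: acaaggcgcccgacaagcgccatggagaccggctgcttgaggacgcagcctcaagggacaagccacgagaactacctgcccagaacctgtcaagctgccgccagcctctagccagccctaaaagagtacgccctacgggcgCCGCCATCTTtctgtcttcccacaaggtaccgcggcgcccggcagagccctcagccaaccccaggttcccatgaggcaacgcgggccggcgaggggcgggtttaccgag
Mrps21 holds an NRF1 match, Mrpl14 holds none of the 3 motifs, Mrps22 holds an ETS match close to its start, and Mrps11 holds a YY1 match on the reverse strand. A match is a string of letters and not a shown binding site.

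Of the 77 members, 68 had a promoter in the RefSeq table. An NRF1 match lay in 10 of these 68 (14.7%), against 7.51% of 11875 promoters of protein-coding genes in the table and 9.73% of the 6474 whose mean count lay in the members' range. By subunit it was found in 9 of 42 large-subunit promoters (21.4%) and in 1 of 26 small-subunit promoters (3.85%), that of Mrps21. An ETS match lay in 15 (22.1%), against 12.7% and 16.05%. A YY1 match lay in 1 (1.47%), against 0.935% and 1.16%. The letters of the TATA box (TATAAA), on either strand and anywhere in the 250 bases, were found in 4 (5.88%), against 6.69% and 5.08%. Such a match need not be a core promoter element. No member held matches of different motifs that overlapped. Members with an NRF1 match had a median log2 fold change of -0.40 and those without one -0.41. With an ETS match the median was -0.49 and without one -0.39. On a scale relative to genes of like transcript length, described with the length values below, the medians were -0.26 with an ETS match and -0.05 without one, and -0.07 and -0.05 for NRF1. These medians have no test.

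The large and small subunits, the comparison the choice of genes asks for, had the same central value. In the authors' deposited table the median log2 fold change was -0.43 in the 48 large-subunit genes (47 below 0, quartiles -0.54 and -0.19) and -0.43 in the 29 small-subunit genes (27 below 0, quartiles -0.66 and -0.14). The medians differed by -0.0032. The small-subunit values were more spread out, with an SD across genes of 0.30 against 0.23. At an unadjusted p under 0.05, 1 gene of each subunit was lower. Genes are not replicates, so the difference has no test.

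Symbols do not always match the place of a protein in the particle. Mrps30 and Mrps18a carry small-subunit symbols but sit in the large subunit in the known structures. Mrps30 had a log2 fold change of -0.63 ± 0.36 (SE; DESeq2 adjusted p = 0.396) and Mrps18a one of -0.72 ± 0.44 (DESeq2 adjusted p = 0.447) in the authors' deposited table. Counting both by structure gave medians of -0.45 for 50 large-subunit genes and -0.37 for 27 small-subunit genes, a difference of -0.08. Mrps36 is now placed in the 2-oxoglutarate dehydrogenase complex of the citric acid cycle in place of the ribosome. Its value, -0.69 ± 0.42 (SE; DESeq2 adjusted p = 0.452), lay within the range of the others.

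Members listed here as having a bacterial counterpart and those not listed had like medians. The 46 genes listed with a bacterial counterpart had a median log2 fold change of -0.42. The 30 others, counted as mitochondrion-specific, had one of -0.43, with Mrps36 counted in neither. The list may miss counterparts, so the counts hold only for this sorting. Within the large subunit the medians were -0.39 (29 genes) and -0.46 (19 genes). Within the small subunit they were -0.48 (17 genes) and -0.35 (11 genes). As for the subunits, these differences have no test.

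Grouping the proteins by their place in the ribosome gave like values. The 3 proteins of the stalk, which recruits translation factors (Mrpl10, Mrpl11 and Mrpl12), had a median of -0.41. The 5 counted here with the peptidyl transferase region (Mrpl2, Mrpl3, Mrpl4, Mrpl16 and Mrpl27) had a median of -0.45. That is the value of Mrpl4, whose bacterial counterpart lines the exit tunnel, so this group is only a rough sorting. Within that group Mrpl27, the mitochondrial form of bacterial L27, had implied levels of 1015 in wild-type and 582.8 in knockout cells. The authors' deposited table gave it a fold change of -0.80 ± 0.48 (SE; DESeq2 adjusted p = 0.431). The 6 proteins counted at the exit tunnel, without Mrpl4 (Mrpl17, Mrpl22, Mrpl23, Mrpl24, Mrpl45 and Mrpl47), had a median of -0.46 but lay wide apart. Mrpl45, which holds the tunnel exit to the inner membrane, had implied levels of 6244 and 3942, while those of Mrpl24 were 3849 and 3844. Their fold changes in the authors' deposited table were -0.66 ± 0.37 and -0.0018 ± 0.25 (SE). None of these genes passed the test, and the intervals of Mrpl45 and Mrpl24 overlap.

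The mitochondrial ribosome has 3 forms of bacterial S18, each at a different place, and all 3 are encoded by genes of the set. Mrps18b, with a mean count of 1693, had implied levels of 1762 in wild-type and 1623 in knockout cells. Mrps18a, with a mean of 1487.5, had 1850 and 1125. Mrps18c, the least expressed member by count, had 421 and 262. The fold changes in the authors' deposited table were -0.12 ± 0.30 for Mrps18b, -0.72 ± 0.44 for Mrps18a and -0.68 ± 0.49 for Mrps18c (SE). The errors are too wide to separate them.

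Other members of the small subunit covered values from near the lowest to near 0. Mrps6, which in bacteria pairs with S18, had implied levels of 540 in wild-type and 274 in knockout cells and a log2 fold change of -0.98 ± 0.53 (SE; DESeq2 adjusted p = 0.357) in the authors' deposited table. Mrps7, of the head, had 2941 and 1771, with -0.73 ± 0.47 (adjusted p = 0.480). Mrps16 had 2980 and 1803, with -0.72 ± 0.44 (adjusted p = 0.436). Each of these intervals includes 0. Mrps34, a mitochondrion-specific protein, had 1854 and 1173, with -0.66 ± 0.40 (adjusted p = 0.441). Its exons overlap those of Mapk8ip3 on the opposite strand over 63.4% of their length and those of Nme3 over 37.0%, and whether counting used strand is not stated, so its value is uncertain. Mrps2 and Mrps5, which help shape the channel for messenger RNA, had -0.04 ± 0.31 and -0.13 ± 0.32 in the authors' deposited table. Mrps9, whose bacterial counterpart reaches the decoding centre, had -0.48 ± 0.36.

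In the large subunit, Mrpl54, a mitochondrion-specific protein, had implied levels of 1534 in wild-type and 879 in knockout cells and a log2 fold change of -0.80 ± 0.51 (SE; DESeq2 adjusted p = 0.477) in the authors' deposited table. Mrpl15, the most abundant member by count, had 7698 and 5545, with -0.47 ± 0.39 (adjusted p = 0.626). Mrpl41 and Mrpl43, mitochondrion-specific and among the least abundant of the subunit by count, had -0.53 ± 0.39 and -0.60 ± 0.41. The exons of Mrpl43 overlap those of Twnk, the gene of the mitochondrial DNA helicase, over 33.4% of their length on the opposite strand. Mrpl39, also mitochondrion-specific, was level, with 2897 and 2893. Across the 77 members, Spearman's rho between log2 fold change and mean count was 0.17, a description without a test.

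Exons of 32 members overlap those of another annotated gene, so some of their reads may belong to a neighbour. Besides Mrps34 and Mrpl43, and Mrpl19, where 1962 bases overlap those of Gcfc2, the members with the greatest overlap with a single gene were Mrps25, with 69.8% of its exon length, Mrps18b with 30.5%, Mrpl24 with 26.3%, Mrps27 with 24.2% and Mrps18c with 23.2%. The median was -0.45 in the 45 members without such an overlap and -0.40 in the 32 with one. Of the 77 members, 26 start within 1000 bp of a protein-coding gene that runs the other way, with at most 500 bp of overlap between the starts. None of these 26 partner genes passed the test, while 1.25% of all genes tested passed as lower and 5.34% as higher. Of the 26, 20 were below 0, against 51.4% of all genes and 67.5% of genes in the members' range of mean count. The partners' median was -0.27, against -0.48 for the members they face. One such pair joins members of different subunits: Mrpl46 and Mrps11 overlap head to head on chromosome 7. Each of them is thus counted both as a member and as a partner. In the authors' deposited table Mrpl46 had a log2 fold change of -0.58 ± 0.48 (SE; DESeq2 adjusted p = 0.626), while that of Mrps11, as above, was near 0. This pair was singled out after its values were seen, and the intervals of its genes overlap.

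Transcript length moved with the fold change, in the members and in other genes alike. The members are short: the median principal transcript had 1316 bases, against 3087 for genes in the same range of mean count. Members with transcripts under 1000 bases (24 genes) had a median log2 fold change of -0.54, and all 456 genes of that length in the range one of -0.43. From 1000 to 2000 bases the medians were -0.39 in 28 members and -0.34 in 1622 genes. From 2000 to 3000 bases they were -0.46 in 9 members and -0.21 in 1879 genes. At 3000 bases and over they were -0.19 in 16 members and -0.05 in 4280 genes. Across genes, Spearman's rho between log2 fold change and length was 0.35 over the 77 members and 0.37 over the 8237 genes in the range. With GC content of the transcript it was -0.37 and -0.38. Genes share the same 6 libraries and are not independent replicates, so these are descriptions.

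Set against genes of their own length, the members stood closer to the middle. With each fold change taken relative to the median of genes of like transcript length (20 bins), the members' median was -0.07, with 54 of 77 below 0. It was -0.07 in the large and -0.07 in the small subunit. The 26 members with the longest transcripts lay lower on this scale, with a median of -0.20 and 22 below 0. The 26 with the shortest transcripts had a median of -0.12 (17 below 0) and the 25 in between one of -0.06 (15 below 0). Relative to genes of like GC content the median was -0.19, with 63 of 77 below 0. On the length-relative scale Mrps21 stood at -0.65, Mrpl14 at -0.52, Mrps6 at -0.55 and Mrps22 at 0.55. What underlies the relation with length was not tested: length, GC content and gene function cannot be told apart in 1 comparison of 2 genotypes.

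**Figure D4:**
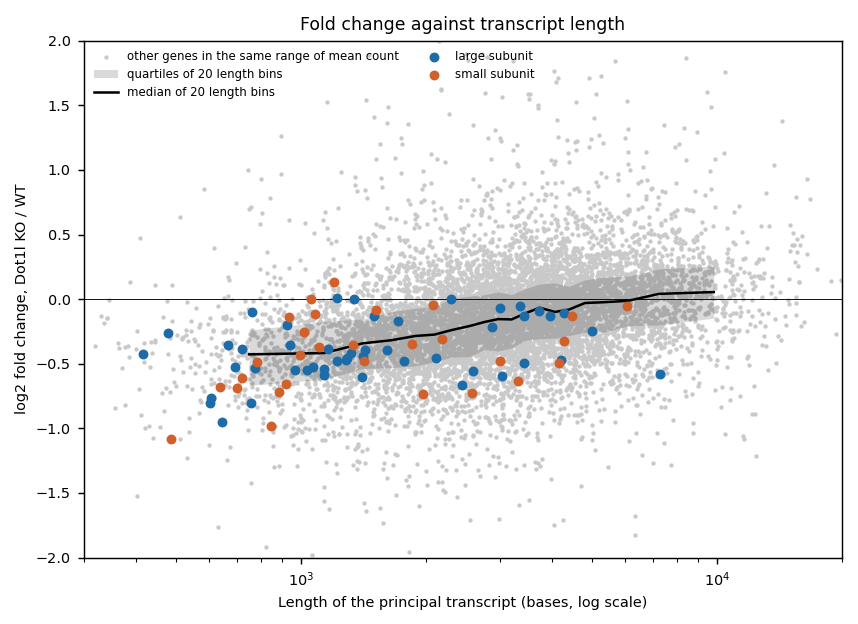
Log2 fold change (Dot1l knockout over wild type, vertical axis) against the length of the principal transcript (bases, log scale) for the members in colour and the other genes in their range of mean count in grey, with points outside the axes not drawn. The black line and grey band are the median and quartiles of 20 length bins: short genes sit lower, and the members lie around the line up to 2000 bases and mostly below it beyond.

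Related genes of the mitochondrial translation system showed where the members stand within it. None of these genes passed the test in either direction. The 6 other proteins of the mitochondrial ribosome that carry different symbols had a median log2 fold change of -0.39, close to the members. In the authors' deposited table the lowest were Chchd1, of the small subunit, at -0.77 ± 0.42 (SE; DESeq2 adjusted p = 0.363), and Gadd45gip1, of the large subunit, at -0.74 ± 0.42 (adjusted p = 0.399). Of 31 measured assembly factors, which process, modify and fold the ribosomal RNA and proteins, the median was -0.20 and 4 were lower at an unadjusted p under 0.05, against 9.18% of genes in the members' range of mean count. Relative to genes of like transcript length the median turned to 0.05, with 11 below 0 of the 26 whose mean count lay in that range. Mettl17, a factor for assembly of the small subunit, had the smallest p, with -0.84 ± 0.32 (SE; DESeq2 adjusted p = 0.0969), followed by Rpusd4, an enzyme that modifies the large ribosomal RNA, with -0.69 ± 0.28 (adjusted p = 0.143). Both lay below the median member but did not pass.

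The 14 measured translation factors of mitochondria, which start, extend and end the protein chain or steer single messenger RNAs, had a median of 0.04 and 8 of them were above 0. In the authors' deposited table Lrpprc, which stabilises mitochondrial messenger RNA, had 0.46 ± 0.25 (SE; DESeq2 adjusted p = 0.354), and Taco1, an activator of translation of a cytochrome oxidase subunit, 0.48 ± 0.29 (adjusted p = 0.431). Relative to genes of like length their median was 0.25, with 1 below 0 of the 10 in the members' range of mean count. The 14 genes of mitochondrial transcription and DNA replication had a median of -0.16, and of -0.04 relative to genes of like length (11 genes in the range). The smallest p-values among them in the authors' deposited table belonged to Tfb2m, a transcription initiation factor, with 0.41 ± 0.32 (SE; DESeq2 adjusted p = 0.596), and Tefm, an elongation factor, with -0.47 ± 0.43 (adjusted p = 0.671). Tfam, which packs and transcribes mitochondrial DNA, had -0.14 ± 0.33, and Polrmt, the mitochondrial RNA polymerase, 0.01 ± 0.25. Members, assembly factors and translation factors also differ in transcript length, with medians of 1316, 2014 and 2682 bases, and the differences between their medians were not tested.

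Nuclear factors known to control genes of mitochondrial proteins had a median of -0.02 over 10 measured genes. Nrf1 had -0.14 ± 0.27, Gabpa 0.14 ± 0.30 and Yy1 0.07 ± 0.26 (SE) in the authors' deposited table. Mycn, a MYC family factor that drives ribosome production in stem cells, was the only one lower at an unadjusted p under 0.05, with -0.91 ± 0.45 (SE; DESeq2 adjusted p = 0.276). Ppargc1b, a coactivator of mitochondrial genes, had 0.39 ± 0.37 (adjusted p = 0.689). Transcripts of the mitochondrial genome itself were not among the rows analysed here, so the RNA of the mitochondrial ribosome and its products could not be set beside its proteins.

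The cytosolic ribosome, built from a separate set of proteins, leaned the same way. Of 84 cytosolic ribosomal protein genes, 0 passed the test, 80 were below 0 and the median log2 fold change was -0.59, against -0.43 for the members. Their transcripts are shorter still, with a median of 843 bases, and only 6 of the 84 have a mean count within the members' range, so the length-relative scale does not extend to most of them. Many of these genes have near-identical pseudogene copies, and the sources do not say how reads that match several places were counted. Among the members, the pseudogene symbols Mrpl48-ps and Mrpl23-ps1 that were left out had mean counts of 173 and 13.5.

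**Figure D5:**
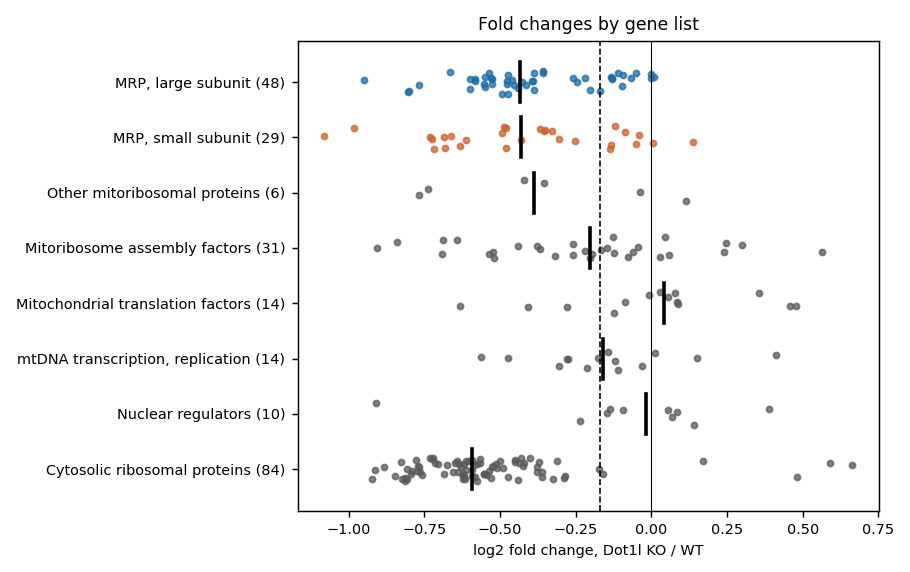
Log2 fold change (Dot1l knockout over wild type, horizontal axis) of each gene in the members' subunits and the related lists, 1 point per gene, with the number of genes in brackets and vertical jitter only for display. Black bars are medians and the dashed line is the median of genes in the members' range of mean count, -0.17: the members lie between the translation factors at 0.04 and the cytosolic ribosomal proteins at -0.59.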

How the data were processed

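Total RNA from 6 samples of E14 cells (3 Dot1l knockout, 3 wild type, grouped by the sample titles) was sequenced. Per the submitters' processing notes, the authors used HISAT2 2.1.0, featureCounts 2.0.0, DESeq2 and the build mm10. For the DESeq2 version, strand setting, treatment of reads with several matches and gene annotation: not given in the sources used here. The deposited gene table holds, per the file headers, the mean over all libraries of size-factor-normalized counts (used as a signal), the log2 fold change and its SE, the Wald score of the authors, and the authors' p-value and its adjusted form, for 19571 genes, 7 of them without a p-value. An edgeR test on counts per library had been the first choice, but the values used here are per comparison, so the authors' deposited DESeq2 test was used.

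From these values 95% intervals, implied levels per genotype and medians were computed (Python 3.11.15, pandas 2.3.3, numpy 2.4.6, scipy 1.17.1, matplotlib 3.10.9). The script was tested on simulated data. Positions and principal transcripts came from GENCODE mouse release 21, and promoters from RefSeq. Members, lists, groups by place in the ribosome, motifs and printed promoters were chosen with earlier results of these data known, and the groups by place and the promoters after the members' values were seen. Genes named were the 8 members of smallest p, the 3 highest and 3 lowest fold changes and 2 highest and 2 lowest mean counts of each subunit, the Mrps18 family, Mrps30, Mrps36, and the 2 genes of smallest p in each list of related mitochondrial genes. Single genes of the cytosolic ribosome are not reported here. Genes named by level per kilobase, by overlap or as known regulators (among them Tfam and Polrmt), and the pair Mrpl46 and Mrps11, were added outside that rule after values were seen. Alternatives were centred fold changes, scaled statistics, other thresholds, a mean count minimum of 50, and subsets of members. Tables of transposable elements were not used here.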

Additional observations from a re-analysis of the deposited data

How the results depend on the processing

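No paired analysis was possible because the values are given per gene and not per library. For the same reason leaving out replicates, another normalization of the counts and another count filter were not run. The count of members past the adjusted threshold was 0 in each direction under all alternatives that kept an adjusted p, and 2 lower at an unadjusted p under 0.05. Stricter thresholds could only give 0 again, because no member passed the main one. The smallest adjusted p of a member was 0.205 under the centred fold changes and 0.660 with the Wald statistics scaled by their spread of 1.30. The members' median log2 fold change, -0.43, stayed below 0 under 9 alternatives, between -0.45 and -0.072. It was -0.23 when centred in bins of mean count, and, under alternatives chosen after seeing the data, -0.072 in bins of transcript length, -0.11 in bins of exon length summed over transcripts and -0.19 in bins of GC content; the cause was not tested. The difference between subunits lay between -0.08 and -0.0032 under 7 alternatives. A mean count minimum of 50 could change neither the median nor this difference, because the lowest mean of a member was 341. It gave the deposited difference of -0.0032 again, and in bins of transcript length the difference was -0.0091. For 25 named members under these alternatives, 89 of 100 values kept their direction and 11 reversed, none of them past the threshold. One of the alternatives, a Bonferroni threshold, leaves the fold change as it is, so the 25 values under it could not reverse. Centred on the median of the table, Mrpl24 came to 0.017 and Mrpl39 to 0.017. In bins of mean count Mrpl24 came to 0.18, Mrpl39 to 0.18, Mrps18b to 0.073, Mrps2 to 0.18 and Mrps5 to 0.042. In bins of transcript length Mrpl24 came to 0.34, Mrpl39 to 0.24, Mrps18b to 0.30 and Mrps2 to 0.23. Errors near 0.40 limit what single members can show, and the depth of each library is unknown.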
